A study of Mus musculus with 8 samples.

Results

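The 10 genes described here belong to the unfolded protein response, the program by which cells raise the folding capacity of the endoplasmic reticulum (ER). They were chosen by name and were Hspa5, Hsp90b1, Xbp1, Calr, Pdia4, Dnajb9, Sdf2l1, Herpud1, Creld2 and Manf, and all 10 were measured among the 20189 genes of the table. The question was whether they moved with the amino acid stress genes when breast cancer cells were given acetate. RNA came from 4T1 cells, an established mouse mammary carcinoma line of wild-type genotype, which had been kept for 48 h in medium with serum and either 5 mM acetate (n = 4) or water as the vehicle (n = 4). Both groups share that medium and this 1 line. Acetate and vehicle libraries carry the numbers 1 to 4, and libraries with the same number share a code in the labels and form a pair.

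Unfolded proteins in the ER are sensed by the membrane proteins ATF6, IRE1 (encoded by Ern1) and PERK (encoded by Eif2ak3). ATF6 is cut to release a transcription factor, IRE1 splices Xbp1 mRNA so that it encodes the active factor XBP1s, and both factors induce chaperones and the machinery that removes misfolded proteins. PERK instead phosphorylates eIF2α, which favours translation of ATF4, and ATF4 induces genes of amino acid synthesis, amino acid uptake and tRNA charging. Lack of amino acids reaches ATF4 through another kinase, GCN2, without the ER sensors. Gene-level values as used here do not separate spliced from unspliced Xbp1.

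Promoter sequences are shown for 5 of the 10 genes, because they carry the elements through which these branches are known to act. RefSeq sequence of the GRCm38.p6 build, running from 250 bases before to 50 bases after the transcription start, was matched for 9 of the genes, and Manf had no entry. The ER stress response element (ERSE, CCAAT, then any 9 bases, then CCACG, searched on both strands) was present in 4 of these 9 promoters, those of Hspa5, Hsp90b1, Calr and Creld2, and in 39 of all 32851 promoters (0.119%). Hsp90b1 held it at 212 and again at 107 bases before the start, and the other matches began 65 bases before the start in Hspa5, 162 in Calr and 126 in Creld2. The related ERSE-II (ATTGG, then 1 base, then CCACG) was found in Herpud1 alone among the 9, 52 bases before the start, and in 0.0365% of all promoters. Herpud1 was also the only one of the 9 with the element that ATF4 can bind with C/EBP partners (CARE, TGATGNAA), which lay 112 bases before the start on the reverse strand and which 3.97% of all promoters hold. The XBP1s element TGACGTGG was in none of the 9 and in 0.676% of all promoters. No matches overlapped each other. A match is a description of letters, and a promoter without a match is only one in which these letters are not in this window. In the stretches below, written 5′ to 3′ on the strand of the gene, capitals mark the fixed letters of these elements. Bases that the M21 annotation places in exons were left out, except for the 30-base site of Hspa5.
Hspa5, chr2:34772020-34772049, plus strand: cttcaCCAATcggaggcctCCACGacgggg
Hsp90b1, chr10:86705510-86705664, minus strand: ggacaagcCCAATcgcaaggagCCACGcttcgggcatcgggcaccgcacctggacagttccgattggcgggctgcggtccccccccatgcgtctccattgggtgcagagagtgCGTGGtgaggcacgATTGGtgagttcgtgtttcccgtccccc
Calr, chr8:84846935-84847151, minus strand: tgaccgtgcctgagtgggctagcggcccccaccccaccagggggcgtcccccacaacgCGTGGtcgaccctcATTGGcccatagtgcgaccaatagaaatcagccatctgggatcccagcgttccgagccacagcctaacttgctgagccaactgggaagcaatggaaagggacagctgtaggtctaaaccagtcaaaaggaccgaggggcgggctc
Creld2, chr15:88819426-88819645, plus strand: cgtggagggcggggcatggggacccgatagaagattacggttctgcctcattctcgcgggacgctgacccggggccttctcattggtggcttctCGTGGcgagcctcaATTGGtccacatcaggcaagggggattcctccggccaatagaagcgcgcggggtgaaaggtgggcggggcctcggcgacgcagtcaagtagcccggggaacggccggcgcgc
Herpud1, chr8:94386209-94386428, plus strand: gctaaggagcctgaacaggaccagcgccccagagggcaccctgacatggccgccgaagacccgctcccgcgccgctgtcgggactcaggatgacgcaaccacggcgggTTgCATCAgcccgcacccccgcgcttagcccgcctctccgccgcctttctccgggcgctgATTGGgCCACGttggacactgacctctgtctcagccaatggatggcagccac

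Levels are given as reads that the authors scaled to a library total of 20000000, called units here, and the libraries held 19.9 to 29.3 M reads (M, mega). The 10 genes together took 0.32 to 0.35% of the reads of the vehicle libraries and 0.345 to 0.377% of those of the acetate libraries. Hspa5, Hsp90b1 and Calr supplied 84.3 to 89.4% of this share. Per kilobase of exon, the vehicle means ran from 6790 for Hspa5, 4320 for Hsp90b1 and 3690 for Calr through 1420 for Pdia4, 688 for Manf, 487 for Xbp1, 378 for Creld2 and 339 for Herpud1 to 190 for Sdf2l1 and 125 for Dnajb9. Over the 8 libraries, Hspa5 lay above all other members, Hsp90b1 and Calr overlapped, Pdia4 stood between them and Manf without overlap, and from Manf downward each gene overlapped the next. Counting error was 0.488 to 0.597% for Hspa5 and reached 7.0% for Dnajb9, in the library where it had 204 reads.

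Acetate was accompanied by small and mostly upward differences in these genes, with a median log2 change of 0.12 against 0.02 over all genes. Differences were tested with limma on log2(value + 1), and a change given without a unit below is an acetate minus vehicle difference on this scale. Without regard to the pairs, limma passed 0 of the 10 genes at an adjusted p under 0.05, as it did 0 of all 20189 genes (0%), and edgeR gave 0 as well. At an unadjusted p under 0.05, this fit held 1 member, Hsp90b1, and 353 genes in all. With the replicate number as a block, which compares each acetate library with the vehicle library of its own pair, Calr, Hsp90b1, Pdia4 and Sdf2l1 rose, 0 fell, and 6 did not pass. The block called 5.99% of all genes higher and 2.65% lower, and among the 10292 genes with a mean of at least 100 units, a level that every member exceeds, it called 9.89% higher and 5.08% lower. In 7 of the 10 genes, acetate was higher in 4 of 4 pairs, a pattern that 16.7% of all genes shared, and none was lower in 4 of 4 pairs, as 11.4% of all genes were. Only Hsp90b1 had all acetate libraries above all vehicle libraries, which held for 0.996% of all genes. The sum of the 10 genes was higher with acetate by 7.69%, 9.97%, 5.85% and 8.89% in pairs 1 to 4.

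**Figure D1:**
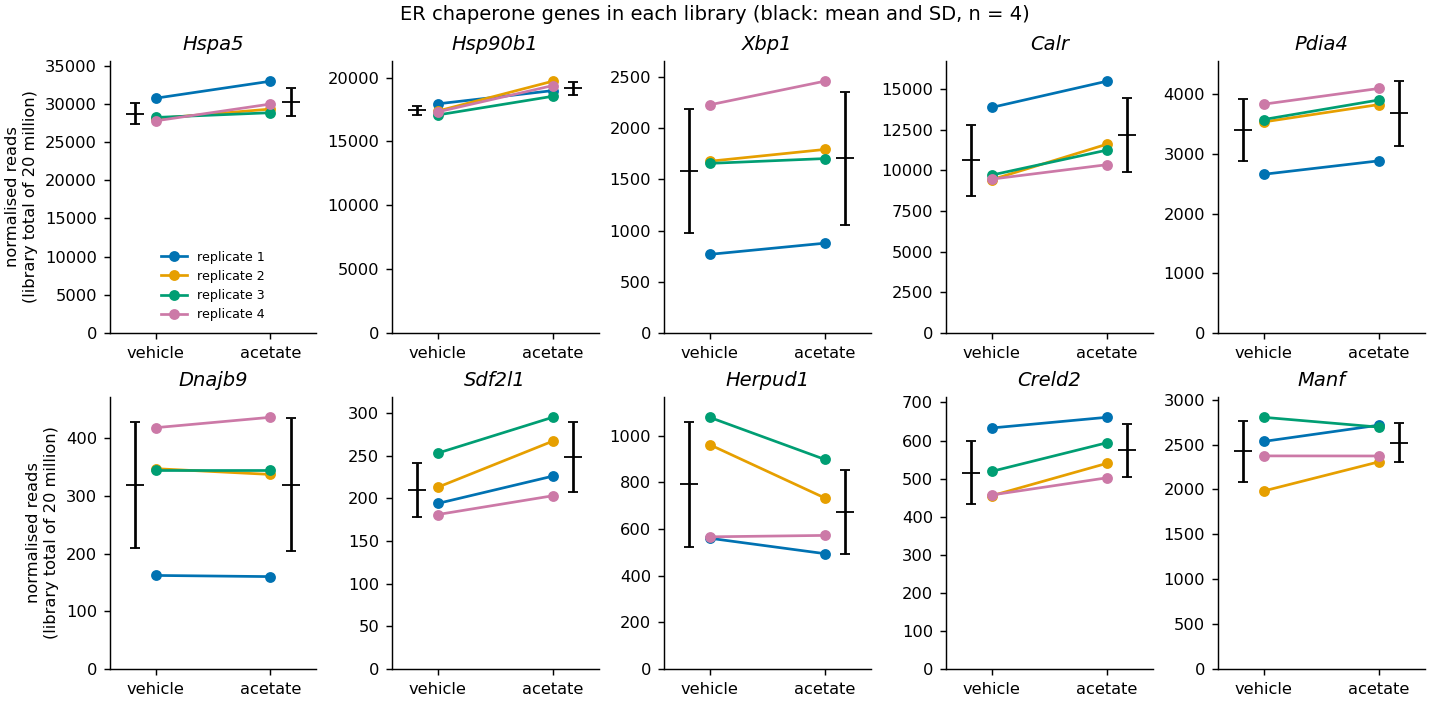
Normalised reads (vertical axes, starting at 0, library total of 20000000) of each of the 10 genes in vehicle and acetate libraries. Coloured lines join the libraries of a pair and black marks give the mean and SD (n = 4); the lines run nearly parallel and lie far apart in Xbp1 and Dnajb9, and only in Hsp90b1 do the treatments separate.

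How many of the 4 calls remain depends on the fit. With the block and median-of-ratios scaling, 3 members passed as higher (Calr, Hsp90b1 and Pdia4) and 1 as lower (Herpud1), where 4.95% of all genes were called higher and 4.07% lower. edgeR with the block on whole reads recovered from the values gave 4 higher and 1 lower, again Herpud1, with 6.51% and 5.38% over all genes. DESeq2 with the block gave 2 higher (Hsp90b1 and Calr) and 1 lower (Herpud1), with 5.28% and 3.83% of the 12361 genes that it tested. When only genes with a mean of at least 10 units entered limma with the block, 6 members were higher, Xbp1 and Creld2 being added, and Herpud1 was lower, with 11.2% and 5.82% called over those genes. Leaving out a pair from the blocked limma fit left 4 members without pair 1, 1 without pair 2, 0 without pair 3 and 2 without pair 4, and 8 of the 10 had an unadjusted p under 0.05 in each of these fits. Over all 20189 genes, the number with an unadjusted p under 0.05 in the same fits was 4434, 3427, 3565 and 3716.

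Among the abundant chaperones, Hspa5 (BiP, ENSMUSG00000026864, chr2:34771970-34777547) is the ER member of the Hsp70 family and holds the ER sensors inactive in unstressed cells. Its level was 30734, 28070, 28217 and 27767 in vehicle libraries 1 to 4 and 32963, 29313, 28836 and 29975 in acetate libraries 1 to 4. Each acetate library was above its own vehicle library, by 0.03 to 0.11 on the log2 scale, while the groups overlapped. The mean was 28697 ± 1371 with vehicle and 30272 ± 1854 with acetate (SD, n = 4), a log2 change of 0.08 with a 95% interval of 0.02 to 0.13, and it did not pass with the block (limma adjusted p = 0.0821).

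Hsp90b1 (GRP94, ENSMUSG00000020048, chr10:86690209-86705509), the ER member of the Hsp90 family, stood at 17952, 17388, 17080 and 17320 in vehicle libraries and at 18988, 19725, 18543 and 19381 in acetate libraries. The lowest acetate library lay above the highest vehicle library. Its mean went from 17435 ± 370 to 19159 ± 509 (SD, n = 4), a log2 change of 0.14 (95% interval 0.08 to 0.19, blocked limma adjusted p = 0.00743), or 9.88%. It was the only member whose variance was mainly tied to treatment, with 83.7% for treatment and 9.36% for the replicate number. The gene spans the pseudogene 1810014B01Rik on the opposite strand, which had a mean of 175 units and shares 273 identical bases with it, and the strand setting of the counting is not given in the sources used here.

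Calr encodes calreticulin, a lectin chaperone that binds calcium and folds glycoproteins (ENSMUSG00000003814, chr8:84841850-84846934). Vehicle libraries held 13872, 9426, 9711 and 9460 and acetate libraries 15483, 11606, 11242 and 10346. Both libraries of pair 1 were far above the rest, so that the groups overlapped although acetate was higher in every pair. From 10617 ± 2173 to 12169 ± 2272 (SD, n = 4), the log2 change was 0.20 (95% interval 0.13 to 0.27, blocked limma adjusted p = 0.00246). This was the smallest adjusted p among the 10 genes, and it was 0.0526 without pair 3 and at most 0.0303 without any other pair.

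Of the disulfide-forming enzymes, Pdia4 (ERp72, ENSMUSG00000025823, chr6:47796141-47813430) belongs to the protein disulfide isomerases. It measured 2658, 3535, 3576 and 3833 with vehicle and 2883, 3826, 3903 and 4096 with acetate. Its pair differences were the most even of the members called, 0.12, 0.11, 0.13 and 0.10 on the log2 scale, with pair 1 low in both treatments. Pdia4 averaged 3400 ± 512 and 3677 ± 541 (SD, n = 4) and rose by 8.18%, with a blocked limma adjusted p of 0.0195, one of 0.0491 after median-of-ratios scaling, and one of 0.135 in DESeq2.

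Of the co-chaperones of BiP, Sdf2l1 passed and Dnajb9 did not. Sdf2l1 (ENSMUSG00000022769, chr16:17130138-17132383), which works with ER J-domain proteins, was at 194, 213, 253 and 181 in vehicle libraries and at 226, 267, 295 and 203 in acetate libraries. It was higher with acetate in each pair, by 0.17 to 0.32, and the groups overlapped. With means of 210 ± 31.6 and 248 ± 41.1 (SD, n = 4), its log2 change of 0.23 was the largest of the 10 (95% interval 0.10 to 0.37, blocked limma adjusted p = 0.0411), though it rests on 252 to 330 reads per library and was not past the threshold after median-of-ratios scaling (adjusted p = 0.0572) or in DESeq2 (adjusted p = 0.244). Dnajb9 (ERdj4, ENSMUSG00000014905, chr12:44205559-44210326), a J-domain partner of BiP and a known target of XBP1s, stood at 162, 347, 345 and 418 with vehicle and at 160, 337, 345 and 436 with acetate. Vehicle and acetate of a pair lay close together, and the pairs differed widely. The change was 0.00 with a 95% interval of -0.12 to 0.12 (blocked limma adjusted p = 0.994). The difference between Sdf2l1 and Dnajb9 was not itself tested.

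Xbp1 (ENSMUSG00000020484, chr11:5520659-5525893), the transcription factor of the IRE1 branch, showed 767, 1677, 1656 and 2228 with vehicle and 876, 1792, 1703 and 2459 with acetate. Acetate was above vehicle in 4 of 4 pairs, by 0.04 to 0.19, inside a 2.91-fold spread between the vehicle libraries. The log2 change was 0.12 (95% interval 0.04 to 0.19) and did not pass with the block (limma adjusted p = 0.0575).

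Herpud1 (ENSMUSG00000031770, chr8:94386438-94395377) encodes an ER membrane protein of the degradation machinery and is known to respond to both ATF6 and ATF4. It was the only member with a lower mean in acetate. Vehicle libraries measured 560, 961, 1078 and 566 and acetate libraries 494, 733, 898 and 572. The level was lower with acetate in pairs 1, 2 and 3, by 0.18, 0.39 and 0.26 on the log2 scale, and level in pair 4, at 0.02. Its means were 791 ± 268 and 674 ± 180 (SD, n = 4). The log2 change of -0.20 (95% interval -0.33 to -0.08) lay just outside the threshold in the blocked limma fit (adjusted p = 0.0515) and inside it with median-of-ratios scaling (adjusted p = 0.0335), edgeR (adjusted p = 0.00568) and DESeq2 (adjusted p = 0.0347), all with the block.

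The secreted or ER-retained members were Creld2 and Manf, small ER-resident proteins that stressed cells can also secrete. Creld2 (ENSMUSG00000023272, chr15:88819646-88826683) read 633, 455, 519 and 457 with vehicle and 661, 540, 594 and 502 with acetate. It was higher with acetate in every pair, by 0.06 to 0.25, and the groups overlapped. The log2 change of 0.16 (95% interval 0.06 to 0.26) did not pass with the block (limma adjusted p = 0.0567). Manf (ENSMUSG00000032575, chr9:106838312-106891979) was at 2535, 1983, 2804 and 2374 with vehicle and at 2716, 2307, 2695 and 2373 with acetate. It was higher in pairs 1 and 2 only, and its change of 0.06 had an interval that spans 0 (-0.03 to 0.16, blocked limma adjusted p = 0.399). The annotated span of Manf holds Rbm15b on the same strand and Dcaf1 on the opposite strand, at means of 2510 and 2660 units, so its reads may be less well separated than those of the other members.

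**Figure D2:**
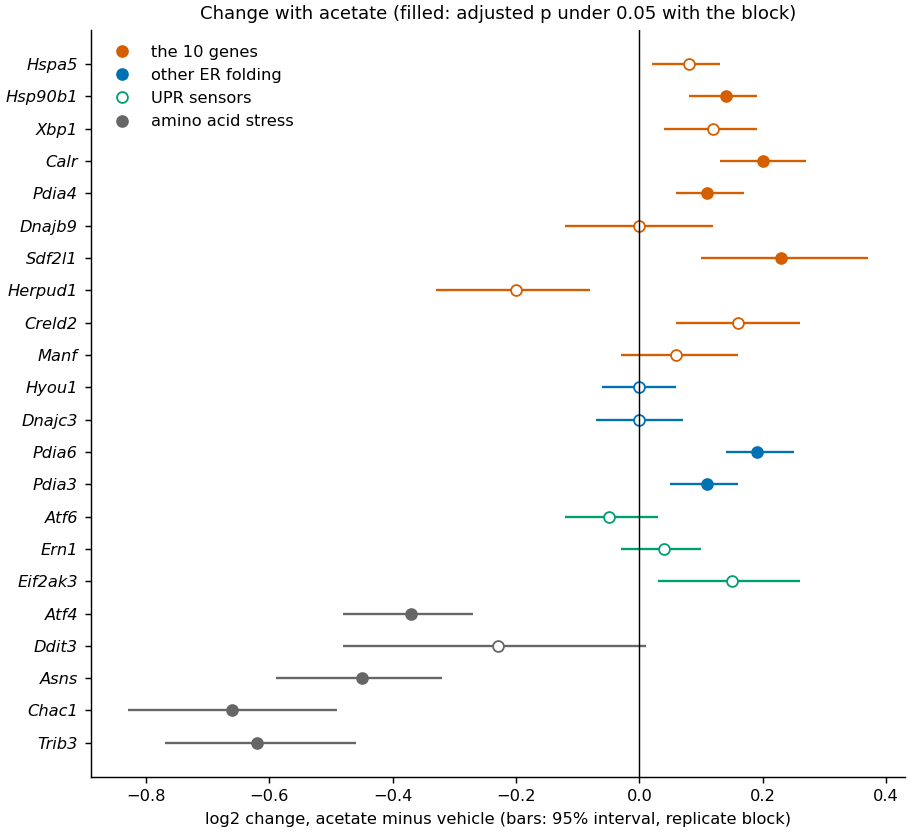
Log2 change (horizontal axis, acetate minus vehicle) with its 95% interval from the blocked limma fit for the 10 genes and for selected genes of ER folding, ER stress sensing and amino acid stress. Filled points passed an adjusted p of 0.05; Calr, Hsp90b1, Pdia4 and Sdf2l1 lie to the right of 0 and Atf4, Asns, Chac1 and Trib3 far to the left.

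The amino acid stress genes, a list of targets and partners of ATF4, were mostly lower with acetate, where most of the 10 ER genes were higher. Of the 47 listed genes that were measured, 36 fell and 1 rose in the blocked limma fit and 10 did not pass, with a median log2 change of -0.27, against 0.12 for the 10 ER genes and 0.02 for all genes. Without the block limma passed 0 of them and 1 had an unadjusted p under 0.05, and edgeR with the block gave 38 lower and 0 higher. Leaving out pair 1, 2, 3 or 4 from the blocked limma fit gave 39, 21, 19 and 20 lower and 0 higher. Those fits hold fewer libraries. In pairs 1 to 4 the median of this list was -0.11, -0.38, -0.23 and -0.41, and the median of the 10 ER genes was 0.10, 0.15, 0.08 and 0.12, so that the medians lay on opposite sides of 0 in all 4 pairs. The gene that rose, Ddit4, is an inhibitor of mTORC1 (0.11, blocked limma adjusted p = 0.0412) and did not pass after median-of-ratios scaling (adjusted p = 0.0822). It was named after its value was seen.

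Atf4 itself read 4529, 6033, 7345 and 2573 with vehicle and 4102, 4287, 5503 and 1900 with acetate. It was lower with acetate in every pair and fell by 0.37 on the log2 scale (blocked limma adjusted p = 0.00103). Slc6a9, a glycine transporter, fell by 0.48 (adjusted p = 0.000351), Xpot, which exports tRNA from the nucleus, by 0.40 (adjusted p = 0.000372), and Trib3, a pseudokinase induced by ATF4, by 0.62 (adjusted p = 0.00052). Asns, which makes asparagine, fell by 0.45 (adjusted p = 0.00164) and Chac1, which breaks down glutathione, by 0.66 (adjusted p = 0.000688). Ddit3, which encodes the factor CHOP and lies downstream of PERK as well as of amino acid lack, was at 38.9, 216, 223 and 92.1 with vehicle and at 35.3, 170, 154 and 97.7 with acetate. The pair differences of Ddit3 were -0.14, -0.34, -0.53 and 0.08, below 0 in pairs 1 to 3 like those of Herpud1. Of the 47 listed genes, 35 were lower in 4 of 4 pairs. The Ddit3 change of -0.23 did not pass (blocked limma adjusted p = 0.25).

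**Figure D3:**
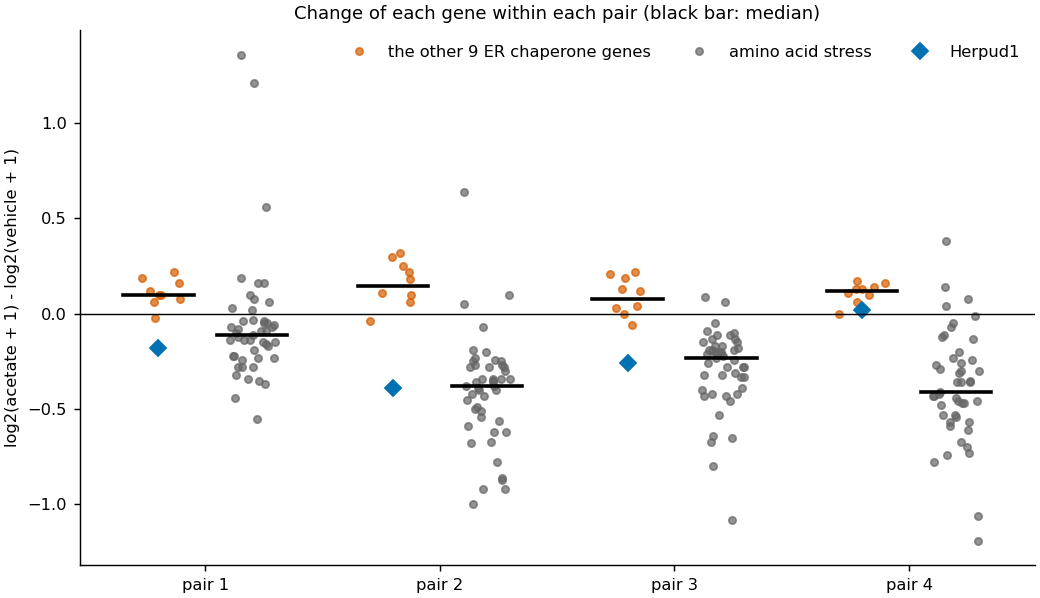
Difference between acetate and vehicle in log2(value + 1) (vertical axis) for each gene within each of the 4 pairs, with black bars at the medians of the 10 ER genes and of the 47 amino acid stress genes. The ER gene medians are above 0 and the amino acid stress medians below 0 in every pair, and Herpud1 (blue diamond) lies below 0 in pairs 1 to 3 and at 0.02 in pair 4.

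The members ranked the vehicle libraries in several orders. That of Herpud1 ran from library 1, the lowest, through 4 and 2 to library 3, the highest. It was found in 12 of the 47 amino acid stress genes (25.5%), Ddit3, Trib3 and Slc6a9 among them. The share was 6.86% over all genes and 6.33% over genes with a mean of at least 100 units. No other member had this order of Herpud1. Sdf2l1, which was higher with acetate, ran from library 4, the lowest, through 1 and 2 to library 3, the highest. Atf4, Asns and Chac1 had the same order as Sdf2l1. Sharing an order with amino acid stress genes was thus not particular to Herpud1. These comparisons were chosen after the values were seen and are descriptions without a test.

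Replicate number accounted for most of the spread of the 10 genes. The median share of the variance of log2 values tied to the replicate number was 82.9%, and that tied to treatment 11.8%, against 81.9% and 3.7% over all genes and 92.4% and 2.64% over genes with a mean of at least 100 units. Replicate 1 stood apart: it held the lowest values of Xbp1, Dnajb9 and Pdia4 and the highest of Hspa5, Calr and Creld2 in both treatments. For Xbp1 and Dnajb9 the replicate number took 98.6% and 99.9% of the variance, and for Pdia4 92.5%. The members also differed in how they ranked the libraries. Across the 8 libraries, Pearson's r between a member and the mean of the other 9 ran from -0.72 for Calr and -0.60 for Hspa5 to 0.87 for Pdia4. After centring each pair, which leaves 4 differences, it was 0.88 to 0.97 for the 7 members that were higher in every pair. It was 0.55 for Manf, -0.01 for Dnajb9 and -0.87 for Herpud1. The acetate difference stays in the centred values, so this r mainly restates the signs of the pair differences. It does not show that the members vary together.

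**Figure D4:**
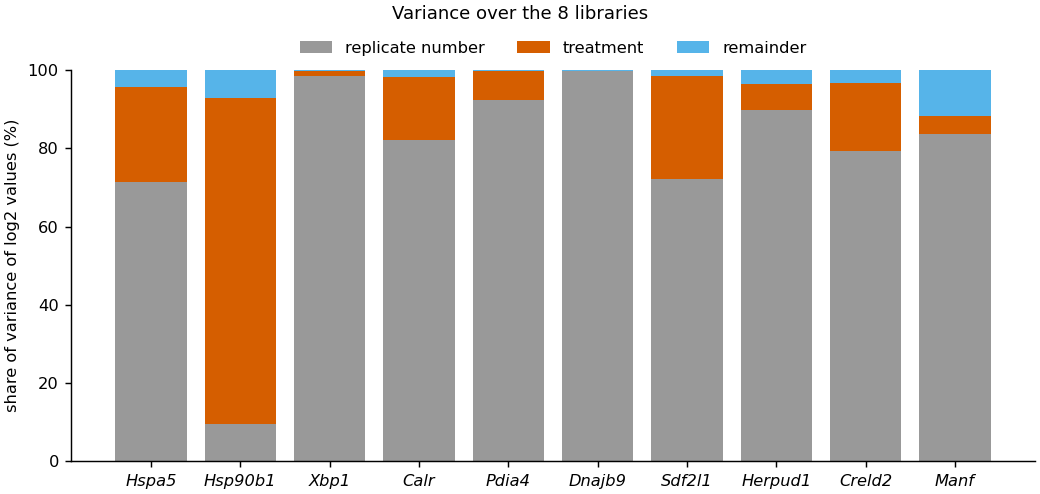
Share of the variance of log2(value + 1) over the 8 libraries (vertical axis, percent) tied to the replicate number, to treatment and to neither, for each of the 10 genes. Treatment takes 83.7% in Hsp90b1 and 0 to 26.3% in the other genes.

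The genes most like the mean of the members across the 8 libraries, among those with a mean of at least 100 units, were Ndufaf7 (r = 0.986), Sh3bp1 (0.984), Zfp703 (0.983), Skiv2l (0.983) and a gene without a symbol (0.984). After centring each pair they were Dok4 and Plxnd1 (both 1.0), Ccn4, Zfp469 and Col4a2 (all 0.999). The libraries share their pairs and their scaling to a common total. The centred values rest on 4 differences and keep the acetate difference itself, so these are descriptions without a test.

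Outside the ER folding genes, other parts of the ER stress program showed few calls. The block called 5.99% of all genes higher and 2.65% lower. Among genes with a mean of at least 100 units, these shares were 9.89% and 5.08%. Among 6 genes of sensing and activation, 0 passed in either direction with limma or edgeR and the block, 1 was higher and 1 lower at an unadjusted p under 0.05, and the median was -0.02. Eif2ak3 (0.15, blocked limma adjusted p = 0.12) was higher in every pair, and Ern1 (0.04, adjusted p = 0.564), Atf6 (-0.05, adjusted p = 0.455), Atf6b (-0.07, adjusted p = 0.308) and the Atf6 protease gene Mbtps2 (-0.08, adjusted p = 0.161) did not pass either. Of 18 other ER folding genes, 4 rose and 1 fell with the block, with a median of 0.05. In 11 of the 18, acetate was higher in 4 of 4 pairs, against 7 of the 10 members and 16.7% of all genes. The largest rise was that of Pdia6, a further disulfide isomerase, which stood at 4962, 5953, 5839 and 5881 with vehicle and at 5510, 6720, 6942 and 6765 with acetate (0.19, blocked limma adjusted p = 0.00148). Pdia3, the isomerase partner of calreticulin, rose by 0.11 (adjusted p = 0.0226) and Txndc5, of the same enzyme family, by 0.10 (adjusted p = 0.0341). The remaining calls, named after their values were seen, were a rise of the Hsp70-like Hspa13 (0.12, adjusted p = 0.0418) and a fall of Ppib, a proline isomerase (-0.10, adjusted p = 0.0383). Only Pdia6 among the risers still passed after median-of-ratios scaling (adjusted p = 0.00353). edgeR with the block gave 3 higher and 1 lower in this folding list. Hyou1, the nucleotide exchange factor of BiP, had a change of -0.00 (95% interval -0.06 to 0.06, adjusted p = 0.997) and Dnajc3, a J-domain co-chaperone, one of 0.00 (adjusted p = 0.982).

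Among 17 genes of ER-associated degradation, 0 rose with the block, with a median of -0.02. The lectin genes Os9 (0.11, blocked limma adjusted p = 0.102) and Edem1 (0.09, adjusted p = 0.155) did not pass. Among 22 genes of protein import into the ER, 0 rose and 1 fell, the signal peptidase gene Sec11c (-0.19, adjusted p = 0.00656), with a median of 0.02, and Dad1 (0.14, adjusted p = 0.0562) and Ddost (0.07, adjusted p = 0.104), subunits of the enzyme that adds N-glycans, did not pass. For rises in these lists, edgeR with the block also gave 0, and at an unadjusted p under 0.05 there were 2 of 17 and 3 of 22. Of 16 cytosolic and mitochondrial heat shock genes, 2 rose and 0 fell with the block, Hsph1 (0.21, adjusted p = 0.00383) and the low Hspb1 (0.55, adjusted p = 0.0168), around a median of 0.01. Hspa9, the mitochondrial Hsp70, was at -0.18 (adjusted p = 0.0574), and 2 genes of this list passed as lower with median-of-ratios scaling and 4 with edgeR.

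**Figure D5:**
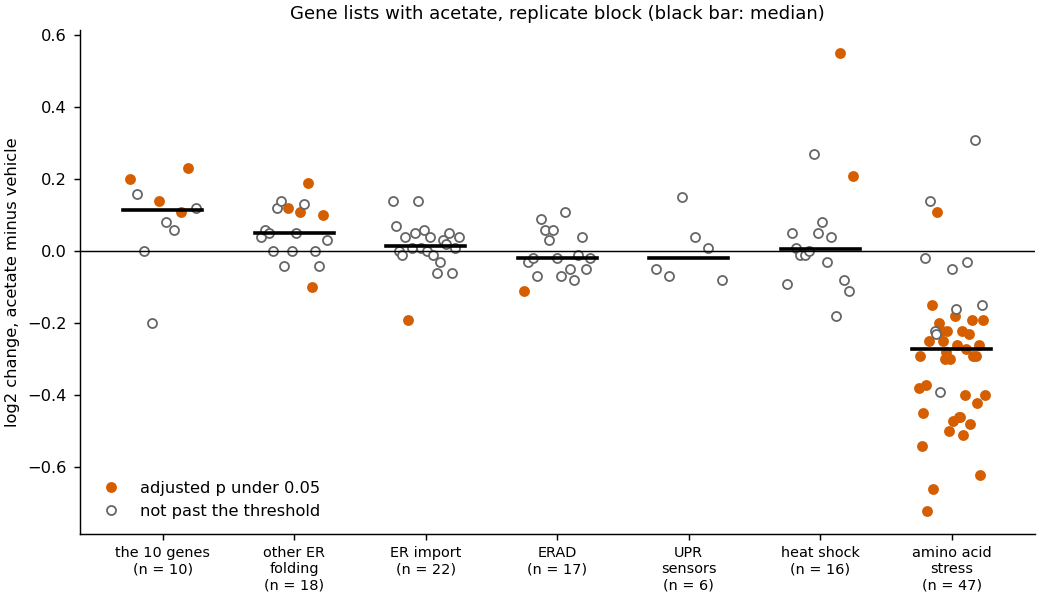
Log2 change with acetate in the blocked limma fit (vertical axis) for each gene of 7 lists, with filled points for an adjusted p under 0.05 and black bars at list medians. The bar of the 10 ER genes is at 0.12, that of other ER folding genes at 0.05, those of import, degradation, sensors and heat shock are within 0.02 of 0, and that of amino acid stress is at -0.27.

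Markers of cell identity were read beside these results. All 6 epithelial markers were present, with sums of 44747 to 66048 in vehicle and 47891 to 68528 in acetate libraries. With the block 3 of them rose, Krt19 (0.40, blocked limma adjusted p = 0.000254), Cldn4 (0.30, adjusted p = 0.000319) and Cdh1 (0.15, adjusted p = 0.00592). Epcam (0.07, adjusted p = 0.154), Krt8 (-0.06, adjusted p = 0.214) and Krt18 (-0.05, adjusted p = 0.363) did not pass. Of 5 fibroblast markers, 3 were measured and 2 rose: Pdgfra from 229, 1213, 1036 and 1496 to 388, 1609, 1508 and 1961 (0.52, adjusted p = 0.000372), and Pdgfrb (1.40, adjusted p = 0.0119) at no more than 33.1 units. Dcn was at no more than 14.5 units, and both Dcn and Pdgfrb were at 0 in vehicle library 1. The summed level of the 3 was 229 to 1523 in vehicle and 394 to 1998 in acetate libraries. Lum and Thy1 were sought but not matched to a measured gene. Of 5 leukocyte markers, 3 were measured and 0 passed in limma, edgeR or DESeq2 with the block or at an unadjusted p under 0.05, with sums of 79.4 to 193 in vehicle and 69.1 to 189 in acetate libraries, nearly all of it Cd68. Ptprc and Lyz2 stayed at or below 3.02 units, and Itgam and Cd3e were sought but not matched to a measured gene. The part of these markers in the ER gene differences was not tested, and in bulk RNA a smaller number of cells that express a gene and less of its RNA per cell cannot be told apart.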

How the data were processed

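Each 4T1 culture gave 1 stranded poly-A library, and the study counts the 4 samples of a group as independent experiments. Per the labels, the authors used STAR and HTSeq with GRCm38 (mm10), with versions, strand setting and handling of multi-mapped reads not given in the sources used here. The authors deposited gene signal values, reads scaled to a total of 20000000 per library, for 20189 genes above 0 in at least 4 of 8 libraries, and 20004 of them have a symbol. Dividing by the value of 1 read gave whole reads for 100% of values in each library (within 0.01 read, wider in proportion for large values). Depth was 19.9 to 29.3 M reads, and counting error covers counting only.

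From these values, log2(value + 1) was fitted for all genes with limma 3.58.1 (trend, R 4.3.3), with acetate against vehicle and Benjamini-Hochberg adjustment, without a block because the study ranked genes unpaired. Departures of same-numbered libraries from the mean of each group correlated at 0.78, 0.23, 0.17 and 0.63. Libraries of unlike number were not compared in this way, so these values alone do not establish the pairs. The labels give same-numbered libraries a common code. On that ground the fit with the replicate number as a block is printed beside the results. It covers the spread between pairs of this 1 line. Alternatives were pseudocounts of 0.1 and 5, a mean of at least 10 units, median-of-ratios scaling, edgeR 4.0.16 and DESeq2 1.42.0 on recovered reads, and leaving out libraries or pairs.

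All 10 members are named, and from each other list at most the 3 genes with the smallest blocked p, with Atf4, Ddit3, Trib3, Chac1, Asns, Atf6, Ern1, Eif2ak3, Hyou1 and Dnajc3 in any case and the 5 genes most like the members. Genes outside this rule, such as Ddit4, Hspa13, Ppib, Epcam, Krt8 and Krt18, were named after their values were seen. The members and lists were chosen with earlier results of these data known, and the fall of amino acid stress genes was among those results. Promoters came from RefSeq (GRCm38.p6) and gene spans from GENCODE M21. Of 48 amino acid stress genes listed, Gdf15 was sought but not matched to a measured gene. One gene of the degradation list that this rule picks is not reported here, and counts and medians over that list include it.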

Additional observations from a re-analysis of the deposited data

Results flagged for a closer look

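Vehicle library 1 lay far above the other vehicle libraries in 2 members. For Calr it held 13872 units against 9426 to 9711 in the others, and the gap to its neighbour was 0.936 of the whole range. For Hspa5 it held 30734 units against 27767 to 28217, a gap of 0.848 of the range. The acetate library of the same pair was also the highest of its group for both genes. Among the 40 groups of 4 values examined, 2 stood out in this way, and about 1 in 20 would by chance.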

How the results depend on the processing

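Without the block, 0 genes, 0 members and 0 amino acid stress genes passed under every alternative tried, including each library left out. With the replicate block the counts of all genes, members and amino acid stress genes passed were 1744, 4 and 37. They were 1821, 4 and 36 with median-of-ratios scaling, 1764, 4 and 37 with a pseudocount of 5, 2263, 7 and 37 with a mean of at least 10 units, 2400, 5 and 38 in edgeR, and 1126, 3 and 36 in DESeq2. Leaving out a pair from the blocked fit gave 1662, 4 and 39 without replicate 1, 617, 1 and 21 without replicate 2, 409, 0 and 19 without replicate 3, and 539, 2 and 20 without replicate 4. These fits hold fewer libraries. Of the calls over all genes, 69.3% were higher in the blocked fit and 54.9% after median-of-ratios scaling, which set the median change of all genes at 0.00 and that of the members at 0.10. Over 230 recomputed values of single members, 14 changed sign, 8 of them when 1 library was left out without the block and none was past the threshold where it changed sign. With 1 library left out and no block, Xbp1 ran from -0.20 without vehicle replicate 1 to 0.41 and was -0.09 without acetate replicate 4, Pdia4 ran from -0.00 to 0.23, Manf from -0.03 to 0.14, and Dnajb9 from -0.29 to 0.30. In the same fits Calr ran from 0.08 to 0.34, Sdf2l1 from 0.14 to 0.33, Herpud1 from -0.35 to -0.03, Hspa5 from 0.03 to 0.11, Creld2 from 0.09 to 0.26 and Hsp90b1 from 0.12 to 0.15. Dnajb9 was also -0.02 with median-of-ratios scaling with and without the replicate block, -0.01 in edgeR with and without it, and -0.02 with the block in DESeq2 and without replicate 4. With the block and a pair left out, Calr ran from 0.17 to 0.22, Hsp90b1 from 0.12 to 0.15, Pdia4 from 0.11 to 0.12, Sdf2l1 from 0.20 to 0.25 and Herpud1 from -0.28 to -0.14. Depth limits Sdf2l1 and Dnajb9 most, at counting errors of up to 6.3% and 7.0%.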
